A study of Mus musculus with 4 samples.

Results

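The 10 genes described here code for proteins that carry the hedgehog signal between the ligand and the transcription of its targets: *Hhat* and *Disp1*, which act on the ligand in the cell that makes it, *Boc*, *Cdon* and *Gas1*, which hold it at the surface of the cell that receives it, and *Smo*, *Kif7*, *Sufu*, *Gli2* and *Gli3*, which pass the signal on inside that cell. Members were chosen by gene symbol, as 10 of 29924 gene names on the array, and they carry 18 of its 39429 probes. All 18 probes passed the filter on dim probes, and the members are 10 of the 20231 genes tested.

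Secreted hedgehog ligands bind the receptor patched, which otherwise keeps the membrane protein smoothened inactive. Released smoothened enters the primary cilium, where the kinesin KIF7 and the binding protein SUFU control whether GLI2 and GLI3 leave as activators or are cut to repressors. In the ureter, *Shh* is made by the epithelium, and its signal is received in the mesenchyme around it. Purmorphamine is a small molecule that binds smoothened and turns the pathway on without ligand.

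Ureters of NMRI mice were dissected at birth (P0) and cultured for 8 days with 2 µM purmorphamine or with DMSO, the solvent. Mutants carried *Pax2-cre/+; Pparg fl/fl* (*Pparg-cKO*), and controls were littermates without cre that carried at least 1 floxed allele and whose second allele the label does not give (fl/?). Whole ureters were pooled by sex, so that each of 4 groups had 2 pools, male as replicate 1 and female as replicate 2, and the number of ureters in a pool is not given in the sources used here. The deletion driven by *Pax2-cre* covers the epithelium that descends from the nephric duct, in the ureter as in the collecting ducts, and the mesenchyme kept its *Pparg*. The p-values measure the spread between these pools only, and in whole tissue a smaller number of cells of a type and less RNA per cell cannot be told apart.

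Each of 4 two-color arrays, all on 1 slide and scanned together, carried 2 pools of the same genotype and sex, 1 with each treatment, and the dyes were exchanged between the sexes. Between 66.3% and 70.5% of spots were well above background in a channel and 0 were saturated. With 4 arrays in all, their number limits the precision. The *Pparg* probe does not check the genotype, since a transcript without the deleted exons 2 and 3 is still made, and its level was higher in *Pparg-cKO* than in control pools with purmorphamine (log2 difference 0.88, SE 0.17, limma adjusted p = 0.048). All 12 urothelial, 10 mesenchymal and 6 smooth muscle markers were above background in every group, so the tissue of the label was present.

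The values below are log2 levels, that is, log2 of the normalized intensity of the brightest probe of a gene, or log2 fold changes between groups. Levels of different probes are not comparable, since probes differ in how well they bind. Purmorphamine was compared with DMSO by the log2 ratio within each array, and the genotypes were compared across arrays. A gene was called when limma gave a Benjamini-Hochberg adjusted p under 0.05 over the 20231 genes.

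Over both genotypes, purmorphamine raised 3 of the 10 genes, the coreceptor gene *Cdon* by 0.67, the acyltransferase gene *Hhat* by 0.46 and the transcription factor gene *Gli2* by 0.34 on the log2 scale, and lowered none. Of all genes tested, 14.2% were called in this comparison in either direction, with 1280 of the 20231 higher and 1592 lower. Fold changes were above 0 for 9 of the 10 members, with a median of 0.22, beside 51.4% and 0.01 for all genes. In 5 of the 10, namely *Cdon*, *Hhat*, *Gli2*, *Smo* and *Kif7*, all 4 purmorphamine pools lay above all 4 DMSO pools, which was the case for 9.91% of all genes. The count of 9 above 0 was the same on processed signals, with a normexp offset of 16, with median centring in place of loess and with scaling between arrays. The count was 8 without control replicate 1. On processed signals none of the 3 was called (limma adjusted p = 0.061 to 0.066), with fold changes of 0.36 to 0.70.

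**Figure D1:**
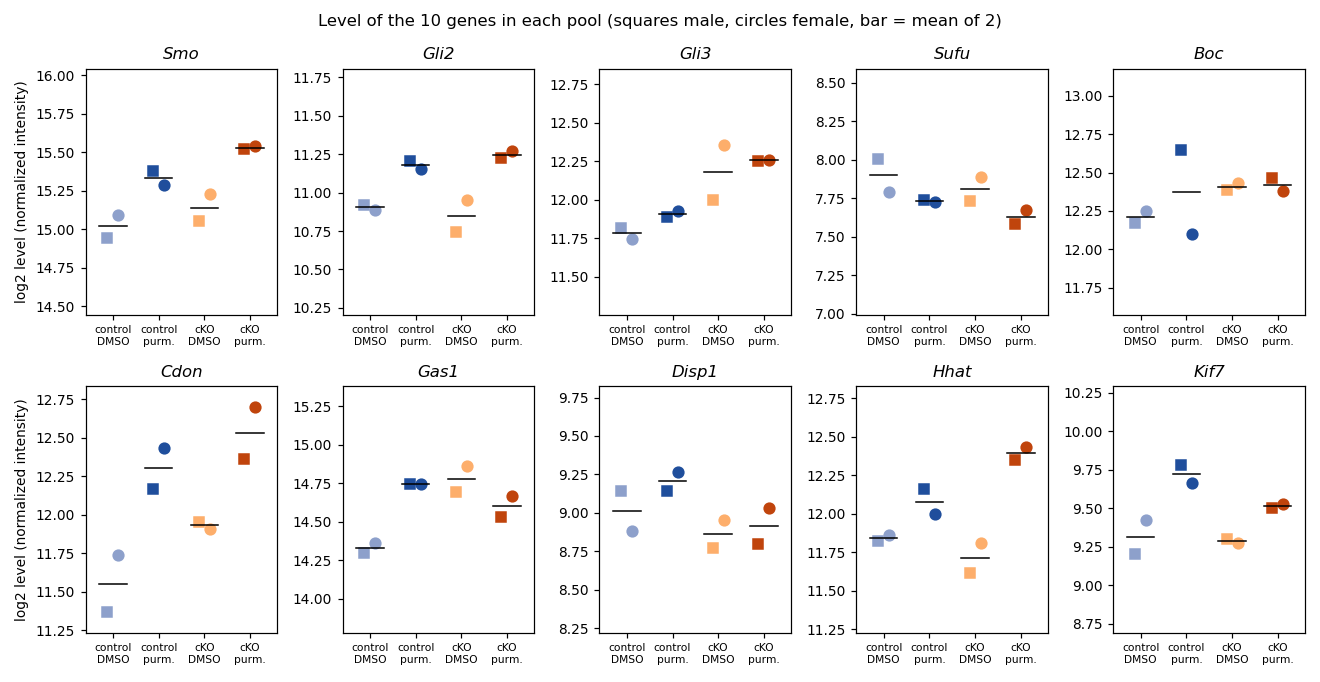
Log2 level (normalized intensity of the brightest probe, vertical axis) of each of the 10 genes in the 8 pools, with squares for male pools, circles for female pools and a bar at the mean of the 2 pools of a group (purm., purmorphamine; cKO, *Pparg-cKO*). Every panel spans an equal log2 range, and the 4 purmorphamine pools stand above the 4 DMSO pools for *Smo*, *Gli2*, *Cdon*, *Hhat* and *Kif7*.

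*Hhat* codes for the enzyme that attaches palmitate to hedgehog ligands, which the ligands need for full activity. In control ureters its log2 level with DMSO was 11.82 (male pool) and 11.86 (female pool), and 12.16 and 11.996 with purmorphamine. The *Pparg-cKO* pools had 11.62 and 11.81 with DMSO and 12.35 and 12.44 with purmorphamine. The purmorphamine pools of the mutant were the highest and its DMSO pools the lowest of the 8. *Hhat* was the 1 member called for purmorphamine in *Pparg-cKO* ureters, where 5.12% of all genes were called, with a log2 fold change of 0.68 (SE 0.11, limma adjusted p = 0.042), or 1.602-fold. In control ureters its fold change was 0.24 (SE 0.11, limma adjusted p = 0.33). The effect in the mutant minus that in control ureters was 0.44 (SE 0.16), and this difference was not past the threshold (limma unadjusted p = 0.036, adjusted p = 1.00). With the 2 other *Hhat* probes this difference was 0.30 and 0.04. Over both genotypes the fold change of the brightest probe was 0.46 (SE 0.08, limma adjusted p = 0.026). The 2 other *Hhat* probes gave 0.28 and 0.22, above 0 as well but not past the threshold (limma adjusted p = 0.077 and 0.12 over all probes). The probe with 0.22 was well above background in 7 of the 8 pools. The call in *Pparg-cKO* ureters was lost without either of the mutant arrays (adjusted p = 0.22 without *Pparg-cKO* replicate 1 and 0.27 without replicate 2) and on processed signals, with median centring, without the filter on dim probes or with the mean over its probes (0.061 to 0.11), and the call over both genotypes was lost without control replicate 1 (0.065), *Pparg-cKO* replicate 1 (0.10) or *Pparg-cKO* replicate 2 (0.10).

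The 250 bases before the annotated start of each gene called, and the first 30 bases of the probe that measured it, are given as context for the gene and as the sequence that was measured. No value here was measured on a promoter. Promoter stretches are from RefSeq on GRCm38.p6 with CG dinucleotides in capitals, and probe stretches are from the array files, whose coordinates are on mm9, with G and C in capitals. All are written 5′ to 3′ on the strand of the gene. For *Hhat* the stretch is chr1:192771220-192771469 on the minus strand, with 5 CG, and the probe lies at chr1:194336802-194336861 on the minus strand, from base 2683 of its transcript in the array annotation.
Hhat promoter: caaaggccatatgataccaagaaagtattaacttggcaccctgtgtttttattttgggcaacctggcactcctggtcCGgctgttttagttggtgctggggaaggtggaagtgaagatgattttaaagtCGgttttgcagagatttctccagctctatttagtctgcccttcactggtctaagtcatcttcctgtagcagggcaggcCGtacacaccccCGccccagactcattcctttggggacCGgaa
Hhat probe: atCCCaaGGtCCCatGaCttttaCtCaGtG

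*Disp1* codes for the transporter that releases lipid-bearing ligand from the cell that makes it. Its log2 level lay between 8.77 and 9.27 in the 8 pools. Over both genotypes its fold change with purmorphamine was 0.12 (SE 0.09, limma adjusted p = 0.45), and the groups overlapped.

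*Cdon* and *Boc* code for related surface proteins of the immunoglobulin superfamily that bind ligand together with patched. The log2 level of *Cdon* in control ureters was 11.37 (male) and 11.74 (female) with DMSO, and 12.17 and 12.44 with purmorphamine. Mutant pools had 11.96 and 11.91 with DMSO, and 12.36 and 12.70 with purmorphamine. The lowest purmorphamine pool was above the highest DMSO pool, and the male control pool with DMSO was the lowest of all. Over both genotypes *Cdon* rose by 0.67 (SE 0.09, limma adjusted p = 0.017), the most of the 10 genes, which is 1.596-fold. It did not pass the threshold within a genotype, with 0.75 (SE 0.13, limma adjusted p = 0.079) in control and 0.60 (SE 0.13, limma adjusted p = 0.075) in *Pparg-cKO* ureters, and the effects of the genotypes differed by -0.15 (SE 0.19). The second *Cdon* probe gave 0.23 over both genotypes (SE 0.07, limma adjusted p = 0.10 over all probes). The call was lost without control replicate 1 (adjusted p = 0.053) or *Pparg-cKO* replicate 2 (0.055).

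The stretch before the start of *Cdon* is chr9:35451826-35452075 on the plus strand, with 1 CG and a GC content of 42.8%. Its probe, at chr9:35315141-35315200 on the plus strand of mm9, starts at base 7117 of the transcript, and the second probe starts at base 3838.
Cdon promoter: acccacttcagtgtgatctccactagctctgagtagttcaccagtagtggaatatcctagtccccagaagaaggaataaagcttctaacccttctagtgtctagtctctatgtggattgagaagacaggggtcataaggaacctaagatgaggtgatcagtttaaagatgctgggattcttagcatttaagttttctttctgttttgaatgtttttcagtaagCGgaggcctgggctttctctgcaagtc
Cdon probe: tGtGtGaaGttGtaCataCtCtaaGtGatG

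*Boc* was not called in any comparison. Its log2 level with purmorphamine was 12.65 and 12.10 in the male and female control pools, the highest and the lowest of all 8, and the other 6 pools lay between. The fold change over both genotypes was 0.09 (SE 0.12, limma adjusted p = 0.69), and it was positive on the male arrays and negative on the female arrays as means over the genotypes (0.28 and -0.10). Since the dyes were exchanged between the sexes, sex and dye cannot be told apart here. The male control array alone gave 0.48, the others -0.15 to 0.08.

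*Gas1* codes for a lipid-anchored surface protein that also binds ligand and patched. The log2 level of its brightest probe in control ureters was 14.29 (male) and 14.37 (female) with DMSO, and 14.74 in both pools with purmorphamine. The mutant pools lay at 14.69 and 14.86 with DMSO, and 14.53 and 14.67 with purmorphamine. Control pools with DMSO were the lowest 2 of the 8, and the order of the treatments was opposite in the genotypes. Its purmorphamine fold change was 0.41 (SE 0.10, limma adjusted p = 0.12) in control and -0.18 (SE 0.10, limma adjusted p = 0.39) in *Pparg-cKO* ureters, neither past the threshold. The difference between these effects was -0.59 (SE 0.14), with -0.61 between the male and -0.57 between the female arrays, and it was not past the threshold either (limma unadjusted p = 0.0084, adjusted p = 1.00).

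The 3 *Gas1* probes disagree, so the first 30 bases of each are given, with G and C in capitals, in the order of their place in the transcript. All lie on chromosome 13 of mm9, on the minus strand, within 1904 bases. The GC content over the 60 bases was 60% for the probe at base 594 of the transcript, 85% for that at base 1569 and 38.3% for that at base 2438, which is the brightest.
A_55_P2070510, chr13:60278243-60278302: atGGatGaGGaCGCCCatGCCaGaaGtGCG
A_55_P2025562, chr13:60277268-60277327: GGCCttGCGCGCCCGGGCGGCGGCGCtGCt
A_51_P157083, chr13:60276399-60276458: aaaGttaCCatGGtGttGaaCaatGCatGt
In control ureters the purmorphamine fold change was -0.06, -0.01 and 0.41 in this order. In *Pparg-cKO* ureters it was 0.06, -0.09 and -0.18. The difference between the genotypes of -0.59 was thus seen with the probe nearest to the end of the transcript and was 0.12 and -0.08 with the other 2. The part of GC content in this was not tested.

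**Figure D2:**
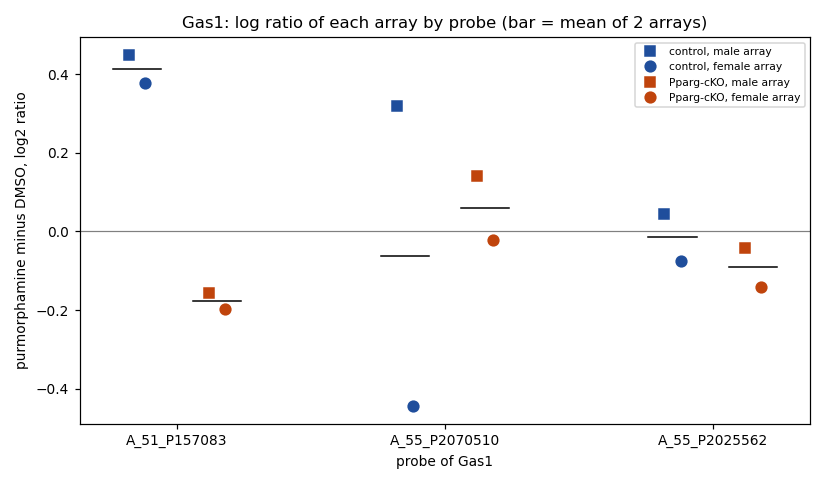
Purmorphamine minus DMSO log2 ratio of each of the 4 arrays (vertical axis) for the 3 *Gas1* probes, with squares for male and circles for female arrays, control in blue, *Pparg-cKO* in orange and a bar at the mean of 2 arrays. The genotypes separate at the brightest probe, A_51_P157083, with means of 0.41 and -0.18, and overlap at A_55_P2070510, where the control arrays lie at 0.32 and -0.44.

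*Smo* codes for smoothened, the membrane protein to which purmorphamine binds. In control ureters its log2 level was 14.95 (male) and 15.09 (female) with DMSO, and 15.38 and 15.29 with purmorphamine. In the mutant the levels were 15.05 and 15.23 with DMSO, and 15.52 and 15.54 with purmorphamine. The treatments did not overlap, but the fold change over both genotypes, 0.35 (SE 0.08), was just outside the threshold (limma adjusted p = 0.052). It was 0.32 (SE 0.12) in control and 0.39 (SE 0.12) in *Pparg-cKO* ureters. The second *Smo* probe gave 0.20.

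*Kif7* codes for a kinesin of the ciliary tip that both restrains and aids GLI activation. Its log2 level was 9.20 and 9.42 in control pools with DMSO and 9.78 and 9.66 with purmorphamine, the male pool first. The levels in *Pparg-cKO* pools were 9.30 and 9.28 with DMSO and 9.50 and 9.53 with purmorphamine. The treatments did not overlap, and within each treatment the spread between the pools of the mutant was small. The fold change over both genotypes was 0.32 (SE 0.09, limma adjusted p = 0.075). A second *Kif7* probe was well above background in 5 of the 8 pools and in neither control pool with DMSO, so no fold change in control ureters is given for it.

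*Sufu* codes for the protein that binds GLI proteins and holds them back, and it was the 1 member with a fold change below 0 over both genotypes. Its log2 level was 8.00 and 7.79 in control pools with DMSO and 7.74 and 7.73 with purmorphamine. Those of *Pparg-cKO* were 7.73 and 7.89 with DMSO, and 7.58 and 7.67 with purmorphamine. The treatments overlapped narrowly. The fold change of -0.17 (SE 0.08) was not past the threshold (limma adjusted p = 0.20), and the second *Sufu* probe gave -0.20.

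*Gli2* and *Gli3* code for the transcription factors at the end of the pathway, GLI2 acting mainly as activator and GLI3 mainly as repressor. In control ureters the log2 level of *Gli2* was 10.92 (male) and 10.89 (female) with DMSO, and 11.21 and 11.16 with purmorphamine. Among *Pparg-cKO* pools it was 10.74 and 10.95 with DMSO, and 11.22 and 11.27 with purmorphamine. All purmorphamine pools were above all DMSO pools, and they lay close together. *Gli2* rose by 0.34 over both genotypes (SE 0.07, limma adjusted p = 0.044), which is 1.26-fold, with 0.28 (SE 0.10) in control and 0.40 (SE 0.10) in *Pparg-cKO* ureters. The call was close to the threshold and was lost without any of the arrays (adjusted p = 0.080 to 0.24) and with a normexp offset of 16 (0.053), median centring (0.053) or the replicate number as a block (0.051), while *Smo* was called with the block (0.046).

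Before the start of *Gli2* lies chr1:119053620-119053869 on the minus strand, with 22 CG and a GC content of 67.2%, the richest of the 3 stretches shown. The single *Gli2* probe lies at chr1:120731255-120731314 on the minus strand of mm9, from base 6031 of the transcript.
Gli2 promoter: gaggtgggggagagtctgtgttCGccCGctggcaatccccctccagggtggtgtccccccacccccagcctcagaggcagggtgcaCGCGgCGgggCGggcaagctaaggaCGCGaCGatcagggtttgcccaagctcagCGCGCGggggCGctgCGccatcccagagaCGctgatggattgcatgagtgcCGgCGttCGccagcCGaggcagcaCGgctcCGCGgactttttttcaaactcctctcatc
Gli2 probe: aGGCattGattCttGGaCtttGaGGaaCtC
The GLI binding motif TGGGTGGTC, searched on both strands, was in 0.253% of 32851 RefSeq windows of 300 bases (250 before and 50 after a start) and in 0 of the 10 windows of 9 members. This says only that these letters were not in the windows. The windows of the pathway's target genes *Ptch1* and *Hhip* had 0 matches as well. The members' windows held 3 to 39 CG, beside a median of 7 over all windows.

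*Gli3* had no fold change past the threshold with purmorphamine (0.10 over both genotypes, SE 0.09, limma adjusted p = 0.52). It was the 1 member for which all 4 *Pparg-cKO* pools lay above all 4 control pools, as did 5.61% of all genes. Its log2 level was 11.82 and 11.75 in control pools with DMSO and 11.89 and 11.93 with purmorphamine. In the mutant it was 12.002 and 12.36 with DMSO, and 12.26 in both pools with purmorphamine. The higher level of the mutant pools was not past the threshold in either medium (adjusted p = 0.18 and 0.25 by limma).

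Between the genotypes, 0 of the 10 members were called with DMSO, where 3.92% of all genes were, and 0 with purmorphamine, where 3.14% were. At an unadjusted limma p under 0.05 there were 2 members in each, *Gas1* and *Gli3* with DMSO and *Gli3* and *Hhat* with purmorphamine, beside 15.8% and 15.6% of all genes. With DMSO the *Pparg-cKO* minus control log2 difference was 0.45 for *Gas1* (SE 0.10, limma adjusted p = 0.067), 0.40 for *Gli3* (SE 0.13, adjusted p = 0.18) and 0.38 for *Cdon* (SE 0.17, adjusted p = 0.37), and the other 7 lay between -0.15 and 0.20. With purmorphamine it was 0.35 for *Gli3* (SE 0.13, limma adjusted p = 0.25), 0.32 for *Hhat* (SE 0.11, adjusted p = 0.22) and -0.29 for *Disp1* (SE 0.14, adjusted p = 0.39). For this difference the 2 other *Hhat* probes gave 0.21 and -0.15, so its probes disagree in direction. The medians of the members were 0.05 with DMSO and 0.06 with purmorphamine, beside 0.00 for all genes in both. A p that misses the threshold does not show that the genotypes are alike. The genotype and the purmorphamine comparisons use the same pools, so their values are not independent.

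**Figure D3:**
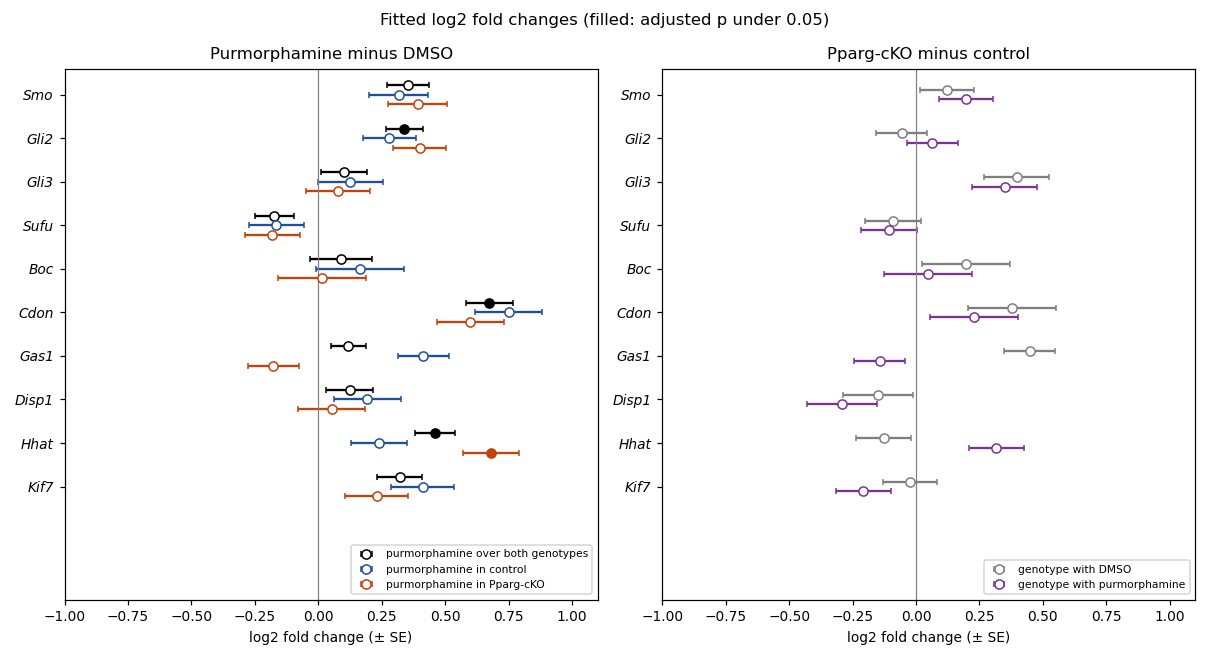
Fitted log2 fold changes (horizontal axis, ± SE) of the 10 genes, with purmorphamine minus DMSO on the left and *Pparg-cKO* minus control on the right, each from 2 pools a group; filled points have a limma adjusted p under 0.05. Filled points are *Cdon*, *Hhat* and *Gli2* over both genotypes and *Hhat* in *Pparg-cKO* ureters, and no genotype difference is filled.

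Within control ureters 0 members were called for purmorphamine, where 1.52% of all genes were, although 5 (*Cdon*, *Gas1*, *Kif7*, *Smo* and *Gli2*) had an unadjusted limma p under 0.05, as did 19.6% of all genes. In *Pparg-cKO* ureters 4 did (*Hhat*, *Cdon*, *Gli2* and *Smo*), beside 22.2% of all genes. The test of the difference between the genotypes' purmorphamine effects called 0 members and 0% of all genes, with an unadjusted limma p under 0.05 for 2 members, *Gas1* and *Hhat*, and for 3.32% of all genes. The study's own rule, an intensity over 100 and a 1.5-fold or larger change that both pairs of pools share in direction, has no test. It picked *Hhat* with purmorphamine in *Pparg-cKO* ureters (8.67% of all genes above that intensity were picked) and *Cdon* in control ureters (6.45%). It picked 0 members between the genotypes, with DMSO (5.5% of genes) and with purmorphamine (6.28%). At a threshold of 2-fold it picked 0 members in either purmorphamine comparison.

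**Figure D4:**
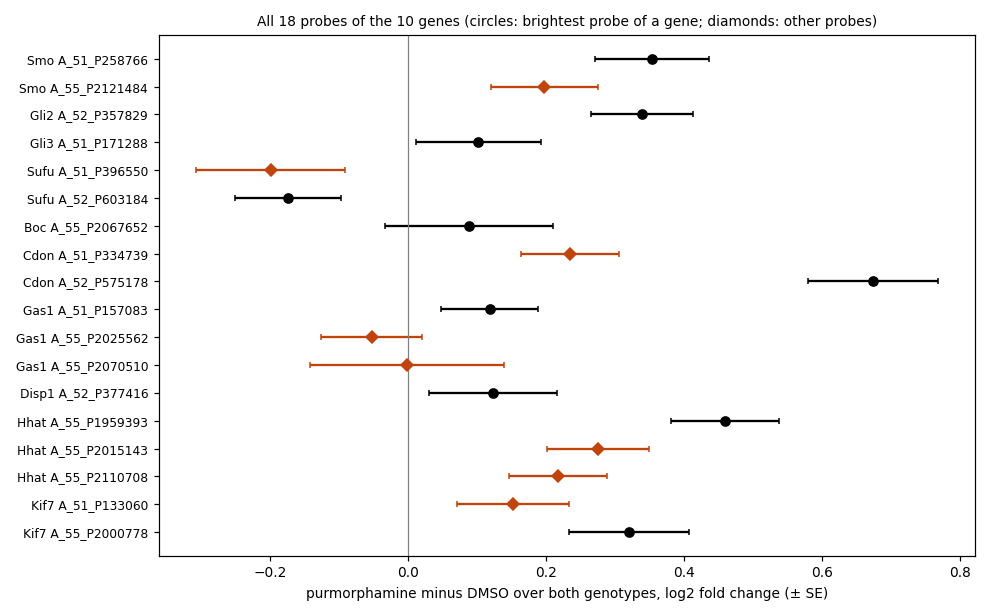
Purmorphamine minus DMSO log2 fold change over both genotypes (horizontal axis, ± SE) for all 18 probes of the 10 genes, with circles for the brightest probe of a gene and diamonds for its other probes. The probes of *Cdon*, *Hhat*, *Smo* and *Sufu* lie on the same side of 0, the diamond of *Kif7* is a probe near background, and the 3 probes of *Gas1* gave 0.12, -0.05 and -0.00, on both sides of 0.

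The probes of *Cdon*, *Hhat*, *Smo* and *Sufu* had the same direction over both genotypes, those of *Gas1* did not, and the sizes differed. For *Cdon*, *Hhat* and *Smo* the brightest probe gave the highest fold change. The 3 *Hhat* probes span 183313 bases of the gene, and the 2 *Cdon* probes 3339 bases. With the mean over a gene's probes in place of the brightest, *Hhat* was no longer called in *Pparg-cKO* ureters (0.45, limma adjusted p = 0.078).

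The other genes of the pathway were counted by lists. Receptor and feedback genes, which are transcribed in response to the signal, rose with purmorphamine over both genotypes: *Hhip*, a decoy receptor, by 1.76 (SE 0.14, limma adjusted p = 0.0065), *Ptch1*, the patched receptor, by 1.31 (SE 0.09, adjusted p = 0.0051) and *Gli1* by 1.20 (SE 0.17, adjusted p = 0.018). Each of these 3 fold changes was above that of *Cdon*, the highest among the members. Of 9 ligand release and surface modulator genes 3 rose, *Gpc3*, a glypican, by 2.48 (SE 0.13, limma adjusted p = 0.0039), and the ligand carriers *Scube2* by 1.19 (SE 0.11, adjusted p = 0.0070) and *Scube3* by 0.57 (SE 0.10, adjusted p = 0.026). Of 14 genes of GLI processing 2 rose, *Btrc* of the ubiquitin ligase by 0.52 and *Prkacb*, a subunit of protein kinase A, by 0.44, and *Arrb2*, a beta-arrestin, fell by 0.50. Of 14 ciliary genes 2 rose, *Evc* by 0.50 and *Dync2h1* by 0.36, a share near the 14.2% of all genes called. None of the 3 ligand genes was called with purmorphamine, with 0.55 for *Shh* (SE 0.17, limma adjusted p = 0.095).

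Between the genotypes, 2 of the 3 ligand genes were called and 0 members were. *Shh* fell by 2.93 on the log2 scale with DMSO in *Pparg-cKO* ureters (SE 0.23, limma adjusted p = 0.0023) and by 2.12 with purmorphamine (SE 0.23, adjusted p = 0.0097). *Ihh* was higher in the mutant by 1.36 with DMSO (SE 0.10, limma adjusted p = 0.0022) and by 1.23 with purmorphamine (SE 0.10, adjusted p = 0.0048). Its log2 level was 6.45 and 6.59 in control pools with DMSO and 6.66 and 6.80 with purmorphamine. In *Pparg-cKO* pools it was 7.90 and 7.86 with DMSO and 7.89 and 8.03 with purmorphamine. The control levels are near those of the second *Kif7* probe (6.35 to 6.69), a probe near background. Since levels of different probes are not comparable, that is a rough guide only, and the size of the *Ihh* difference is uncertain. *Gpc5*, a glypican, was the 1 other pathway gene called, higher by 1.51 and 1.56. *Hhip*, *Ptch1* and *Gli1* were not called, with -0.70 for *Ptch1* with DMSO (SE 0.16, limma adjusted p = 0.076).

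**Figure D5:**
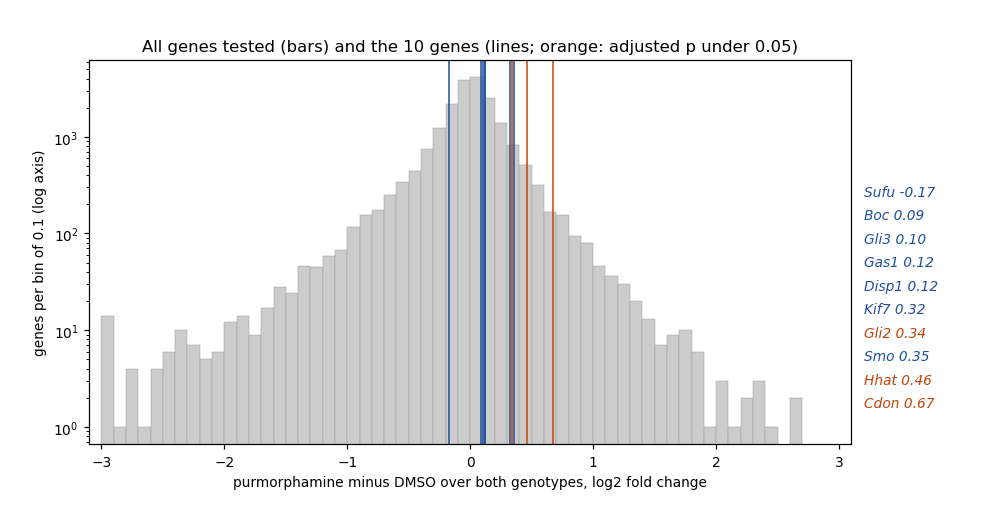
Histogram of the purmorphamine minus DMSO log2 fold change over both genotypes (horizontal axis, bins of 0.1) for the 20231 genes tested. The vertical axis gives genes per bin on a log scale, with a line at each of the 10 genes, orange where called. The 12 genes below -3 are in the lowest bin. The members lie between -0.17 (*Sufu*) and 0.67 (*Cdon*), and *Cdon* lies above 97.3% and *Hhat* above 94.2% of the genes tested.

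Markers of cell types moved with purmorphamine beside the members. Of 10 mesenchymal markers 6 rose over both genotypes and 0 fell (median 0.52), and their summed level (normalized intensity, linear scale) spanned 350900 to 452300 in control and 385200 to 418900 in *Pparg-cKO* pools with DMSO. With purmorphamine it spanned 529100 to 603200 and 596900 to 602200, without overlap. All 6 smooth muscle markers rose (median 0.80), with sums of 256500 to 349500 and 276700 to 317700 with DMSO and of 485900 to 490900 and 487600 to 586600 with purmorphamine. Of 4 endothelial markers 3 rose (median 0.98), with sums of 7029 to 10640 in control and 12720 to 13490 in *Pparg-cKO* pools with DMSO, and of 18290 to 19000 and 25020 to 28940 with purmorphamine. All 5 leukocyte markers fell (median -0.55), with sums of 107500 to 130800 and 113900 to 123900 with DMSO and of 63710 to 91090 and 76800 to 86880 with purmorphamine. Of 12 urothelial markers 5 rose and 1 fell (median 0.14), with sums of 527400 to 582700 in control and 466600 to 519300 in *Pparg-cKO* pools with DMSO and of 647400 to 696500 and 536600 to 540400 with purmorphamine. The part of these cell types in the members' changes was not tested.

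Between the genotypes 0 mesenchymal and 0 smooth muscle markers were called in either medium. Of 12 urothelial markers *Upk1a* (-1.34) and *Upk1b* (-1.31) were called lower and *Epcam* (0.61) higher in the mutant with DMSO, and *Trp63* (-1.11) lower and *Epcam* (0.76) higher with purmorphamine. Of the 4 endothelial markers *Kdr* was called with DMSO, and their median difference was 0.61 with DMSO and 0.58 with purmorphamine. The 4 fat cell markers had medians of -1.66 and -2.61, with 0 called, and summed levels of 69460 to 86770 in *Pparg-cKO* beside 160900 to 207900 in control pools with DMSO and of 18130 to 97950 beside 142400 to 172800 with purmorphamine. Of 4 kidney tubule markers *Umod* and *Slc12a1* were called higher in the mutant with DMSO, with sums of 873 to 1044 in *Pparg-cKO* and 373.5 to 545.5 in control pools. *Slc12a1* was not above background in control pools with either treatment. Both were called lower with purmorphamine in *Pparg-cKO* ureters and not in control ureters, where *Umod* was not above background with purmorphamine. Of the neural markers 0 of 3 tested were called in any comparison. The part of these cell types in the genotype values of *Gas1* and *Gli3* was not tested.

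For each member called, genes among the 3 with the most similar level over the 8 pools by Pearson's r are given as a description. They were *Cdkn1b* (0.99), *Morn4* (0.99) and *Sema3c* (0.99) for *Cdon*, *Macf1* (0.98), *Ackr3* (0.98) and *Nrp1* (0.97) for *Hhat*, and *Vim* (0.97) and *Abhd8* (0.97) for *Gli2*. These pools share arrays and the treatment, so high values are common among genes that moved with it. *Vim* is a mesenchymal marker of the list above.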

How the data were processed

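RNA of 8 pools, each of one sex, was measured on 4 two-color arrays. Per the file headers, the deposited intensity values of each spot are the mean and the local background as scanned, beside a processed intensity with background and dye bias removed by the scanner software (Agilent Feature Extraction 10.7.3.1 per the submitters' processing notes). The deposited table of the series holds signed fold changes between the channels, the authors' own comparison, and was not used.

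Mean intensities were corrected with normexp (offset 50) and loess in limma 3.58.1 (R 4.3.3, package data.table, version 1.17.8), and the 4 spots of a probe were averaged. Purmorphamine was compared with DMSO by dye-turned log ratios with 1 coefficient per genotype. For *Pparg-cKO* against control, channels were fitted separately (lmscFit) once Aquantile had normalized them between arrays (intraspot correlation 0.056). A probe was tested (27066 were) if some group had both of its pools well above background, the brightest stood for its gene (20231 genes), and p was adjusted by Benjamini-Hochberg over genes. For the study's rule, processed signals were scaled to a 75th percentile of 1500 with a floor of 15. The scripts were tested on simulated data. Alternatives were processed signals, a normexp offset of 16, median centring, scaling between arrays, no filter, the mean over probes, a replicate block, each array left out and a 2-fold threshold. Scaling between arrays was for the log ratios, and quantile normalization took its place in the genotype comparisons.

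The members, the gene lists and the markers were chosen with earlier results of these data known. Named are all members, *Shh*, *Ptch1*, *Hhip*, *Gli1*, *Pparg*, the pathway genes called over both genotypes or between the genotypes, and genes among the 3 most similar to each called member. Some genes that this rule names are not reported here. Exons of *Pparg* named here are those flanked by loxP sites per the study's methods.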

Additional observations from a re-analysis of the deposited data

Results flagged for a closer look

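The purmorphamine effect on *Gas1* in *Pparg-cKO* minus that in control ureters was -0.59 on the log2 scale. It was listed because both control arrays moved up (0.45 and 0.38) and both *Pparg-cKO* arrays moved down (-0.16 and -0.20) with the brightest probe. The test of the difference did not pass the threshold (limma adjusted p = 1.00), and the other 2 probes gave -0.08 and 0.12.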

How the results depend on the processing

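Over both genotypes 8 of 11 alternatives called *Cdon* (limma adjusted p = 0.0085 to 0.066), 7 *Hhat* (0.022 to 0.10), 3 *Gli2* (0.041 to 0.24) and 2 *Smo* (0.046 to 0.26), all with the same direction; *Hhat* in *Pparg-cKO* ureters was called in 5 of 11. Without the filter more genes were tested. Other causes were not tested. Processed signals gave 495 and 234 genes called between the genotypes with DMSO and purmorphamine, and for purmorphamine 0 genes and 0 members in *Pparg-cKO*, 0 genes in control, and 126 genes and 0 members over both. In *Pparg-cKO* ureters the members called were 0 with median centring, no filter or the probe mean and 2 (*Cdon*, *Hhat*) with scaling between arrays, with 323 genes without the filter and 1706 with scaling. In control ureters median centring called 1 member (*Cdon*), and no filter left 13 genes. A fold threshold of 2 left 0 members in *Pparg-cKO* and 0 in control ureters. With 1 array left out, genes called ranged from 64 to 436 (genotype, DMSO), 17 to 343 (genotype, purmorphamine), 182 to 1182 (*Pparg-cKO*), 0 to 698 (control), 1257 to 2287 (both) and 0 to 44 (difference), and members from 0 to 1 in *Pparg-cKO* ureters and 0 to 2 over both. The 2 members over both genotypes were *Cdon* and *Hhat* without control replicate 2, and *Cdon* was left without *Pparg-cKO* replicate 1. With an array left out, the intraspot correlation of all 4 was kept, and a lone array was assumed to vary like the other group.

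The replicate block gave 340 and 156 genes between the genotypes and changed no member's call other than *Gli2* and *Smo* over both genotypes. Deviations of same-numbered pools, which share sex and dye but not animals, correlated at -0.17 with DMSO and 0.48 with purmorphamine, and the crossed pairing, chosen after seeing the data, gave 214 genes and 0 members with DMSO. Median centring moved the median of all genes to 0.14 for purmorphamine in control ureters (0.02 otherwise) and to -0.17 for the difference between genotypes (-0.02 otherwise). It turned the split of higher and lower genes from 82 and 226 to 259 and 158 in control ureters and from 1280 and 1592 to 1377 and 941 over both genotypes, and between the genotypes with purmorphamine the split was 250 and 386, 116 and 118 on processed signals, 81 and 75 with the block, and 19 and 5, 12 and 5, and 53 and 22 without control replicate 1, control replicate 2 and *Pparg-cKO* replicate 1. No member that was called changed sign. Signs turned mostly for values near 0. Between the genotypes with DMSO, *Kif7* was 0.032 on processed signals and 0.051 with median centring, which gave 0.047 for *Gli2*. With purmorphamine, median centring gave -0.039 for *Gli2* and -0.063 for *Boc*. There the probe mean gave 0.19 for *Gas1*, beside -0.14 with its brightest probe and 0.15 and 0.55 with its 2 other probes. For purmorphamine in *Pparg-cKO* ureters *Boc* was -0.0080 with median centring. For the difference between genotypes, processed signals gave 0.020 for *Sufu*, and median centring -0.081 for *Smo* and -0.086 for *Gli2*. With 1 array left out, ranges that crossed 0 were, between the genotypes with DMSO, -0.16 to 0.047 (*Gli2*), -0.20 to 0.016 (*Sufu*) and -0.14 to 0.085 (*Kif7*), and with purmorphamine -0.23 to 0.32 (*Boc*). For purmorphamine they were -0.098 to 0.25 (*Gli3*) and -0.051 to 0.078 (*Boc*) in *Pparg-cKO*, -0.15 to 0.48 (*Boc*) and -0.0015 to 0.39 (*Disp1*) in control ureters and -0.068 to 0.24 (*Boc*) over both. For the difference they were -0.045 to 0.19 (*Smo*), -0.22 to 0.13 (*Gli3*), -0.12 to 0.083 (*Sufu*), -0.46 to 0.16 (*Boc*), -0.35 to 0.045 (*Cdon*) and -0.34 to 0.054 (*Disp1*). Spots at background limit the second *Kif7* probe.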
